A study of Homo sapiens with 34 samples.

Results

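RNA immunoprecipitation (RIP) with an antibody to EZH2 was set against RIP with IgG in androgen-independent LNCaP prostate cancer cells, called AI. The comparison rests on 4 of the 34 samples of the study, 2 EZH2 libraries and 2 IgG libraries, each given as RPKM (reads scaled to the length of the gene and the depth of the library) for 25035 genes. Of these, 6594 genes had 2 RPKM or more in both EZH2 libraries or in both IgG libraries and were described further. They comprised 2810 genes that passed through the EZH2 libraries alone, 477 through the IgG libraries alone and 3307 through both. Just inside this minimum stood ACTR10, with 2 and 3.23 RPKM in the EZH2 libraries against 0.67 and 5.08 RPKM in the IgG libraries. Just outside it stood APPBP2, with 1.99 and 3.59 RPKM in the EZH2 libraries against 1.76 and 1.9 RPKM in the IgG libraries.

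LNCaP is an established human cell line of luminal prostate cancer. AI cells were kept in RPMI1640 medium with charcoal-stripped serum, which is poor in steroid hormones, and the androgen-dependent cells (AD) used beside them in RPMI1640 medium; no engineered allele or other agent is labelled. Cells of all 8 RIP libraries were irradiated at 400 mJ/cm2, lysed and treated with DNase, the lysate was bound to beads carrying anti-EZH2 or IgG, and RNA was recovered with proteinase K from a gel piece 30 kDa above the protein. The labels give 1 catalogue number and lot for both antibodies and name 2 sequencers without saying which library ran on which, and the yield of EZH2 protein was not analysed here.

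EZH2 is the catalytic subunit of Polycomb repressive complex 2 (PRC2), which methylates lysine 27 of histone H3 and keeps developmental genes silent; it is often present at high levels in advanced prostate cancer. Purified PRC2 binds many RNAs, and in cells it has been found on nascent transcripts and on long noncoding RNAs. An IgG RIP carries no directed antibody and shows the RNA that comes through crosslinking, beads and gel without one.

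Both EZH2 libraries were far deeper than either IgG library. From the steps between the values of mitochondrial tRNA genes, the EZH2 libraries held an estimated 7846600 and 4605200 reads, against 613400 and 81400 reads in the IgG libraries. In IgG replicate 2, 1 read in a gene of 1 kb is worth 12.3 RPKM, and 1 read reaches 2 RPKM in any gene shorter than 6.14 kb. Accordingly 18055 and 18275 genes were above 0 in the EZH2 libraries, against 10590 and 6960 in the IgG libraries. Across the 6594 genes the log2 levels of the EZH2 libraries correlated at r = 0.783 and those of the IgG libraries at r = 0.513. EZH2 replicate 1 lay closer to AD EZH2 replicate 1 (r = 0.926) than to its own partner, and EZH2 replicate 2 to AD EZH2 replicate 2 (r = 0.895). Nothing says that the replicates came from separate cultures, so p-values measure the spread between these libraries, which may be technical. Each library is a bulk of many cells, so fewer cells carrying an RNA and less of it per cell cannot be told apart.

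Most genes of the AI RIP stood higher with anti-EZH2 than with IgG, while mitochondrial mRNAs and rRNAs, small structured RNAs, MALAT1 and NEAT1 stood lower. For each gene a ratio was taken within each replicate number, log2 of (EZH2 RPKM + 0.5) minus log2 of (IgG RPKM + 0.5), and a gene was counted as higher when both ratios were 1 or more and as lower when both were -1 or less. Of the 6594 genes, 2157 (32.7%) were higher and 212 (3.22%) lower. Both ratios were above 0 in 4207 genes (63.8%) and below 0 in 994 (15.1%), and they had opposite signs in 1391. The values of the EZH2 and IgG libraries did not overlap in 3287 genes with EZH2 above (49.8%) and in 391 with EZH2 below (5.93%). The median ratio was 0.93 in replicate 1 and 0.97 in replicate 2.

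No gene passed a test across all genes. limma, fitted to the 13667 genes with 0.5 RPKM or more in at least 2 of the 8 RIP libraries, called 0 genes higher (0.0%) and 0 lower (0.0%) at an adjusted p of 0.05. The smallest adjusted p was 0.109, and at an unadjusted p of 0.05 the same test counted 2837 genes above (20.8%) and 93 below (0.68%). The call depended on the setting. With the test confined to the 6594 genes, limma called 494 higher and 12 lower. Those genes were chosen by the values of the groups under test, 2810 of them through EZH2 alone, so these calls are in part set by the choice. The replicate number as a block gave 1419 and 56. Leaving out IgG replicate 1 left a lone shallow IgG library, assumed to vary like the other groups, and a median change of 0.96. Ratios against IgG replicate 1 alone, added after the data were seen, gave 2827 genes higher and 114 lower. The lower count moved with each library left out: 91 without EZH2 replicate 1, 370 without EZH2 replicate 2 and 490 without IgG replicate 1. The split between the directions also moved with the scaling: with each library divided by its median ratio to the geometric mean of all libraries, 1252 genes were higher and 519 lower. The median change over the 13667 genes was 0.88 as deposited, 0.50 with that scaling, 0.42 after leaving out mitochondrial and small structured RNAs and rescaling, and -0.06 after quantile normalization. Gene groups are therefore read beside the median of all genes.

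**Figure D1:**
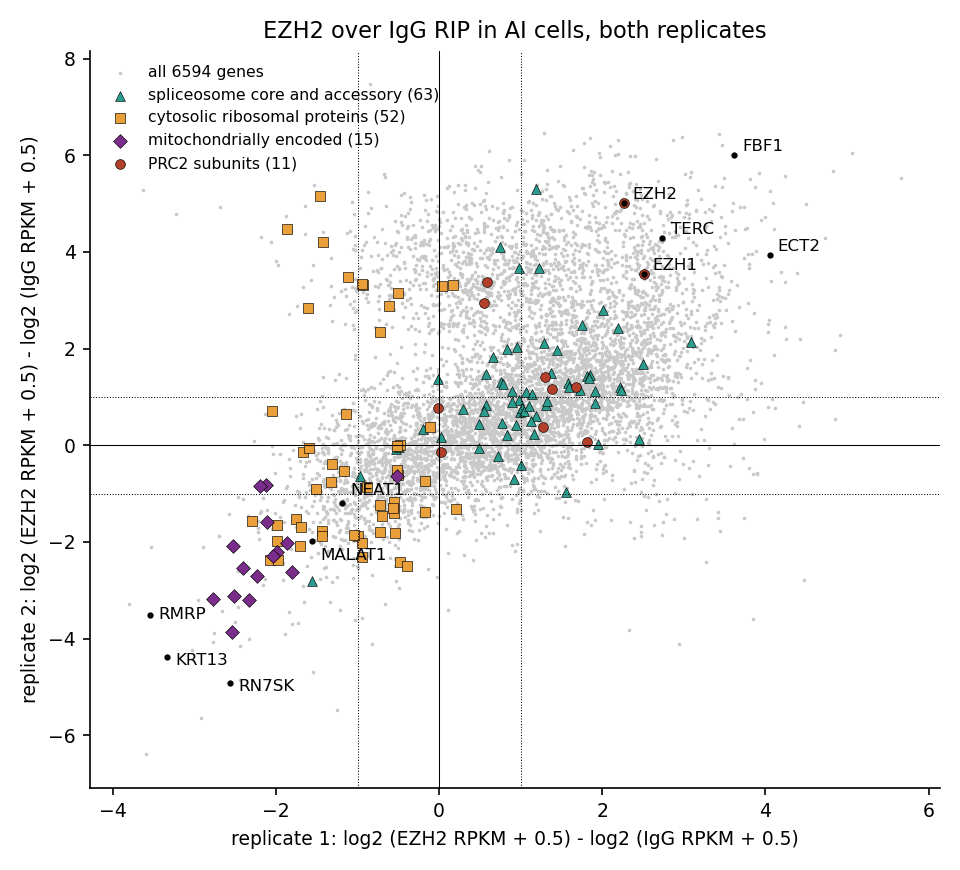
Replicate ratios of EZH2 over IgG RIP in AI cells (log2, replicate 1 on the horizontal and replicate 2 on the vertical axis) for the 6594 genes; dotted lines mark ratios of 1 and -1, and coloured symbols mark the members of 4 gene lists. The 15 mitochondrial mRNAs and rRNAs all sit below 0 on both axes. The band of points near the top holds genes listed at 0 in IgG replicate 2, which numbered 1607 (24.4%).

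The replicate ratios were more alike where both groups were measured. Across the 3307 genes that passed through both groups, the ratios of replicate 1 and replicate 2 correlated at r = 0.684, against 0.433 across all 6594 genes; these are correlations across genes, which share libraries and are not replicates. In the genes that passed through EZH2 alone the correlation was -0.09, and 57.2% of them were listed at 0 in IgG replicate 2. None of the genes that passed through EZH2 alone could be lower, and none that passed through IgG alone could be higher, so the direction of those genes was in part fixed by how they were chosen.

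Mitochondrially encoded mRNAs and rRNAs, made and kept inside mitochondria, were the clearest group on the IgG side. All 15 mitochondrial mRNAs and rRNAs had both ratios below 0, and 12 were lower by the rule above, beside 15.1% and 3.22% of all 6594 genes. MT-RNR1, the rRNA of the small mitochondrial ribosomal subunit, had 1169 and 1180 RPKM in the EZH2 libraries, against 5875 and 10904 RPKM in the IgG libraries. MT-RNR2, its large-subunit counterpart, had 1499 and 719.8 RPKM in the EZH2 libraries, against 10237 and 6523 RPKM in the IgG libraries. Neither rRNA overlapped between the groups, and the IgG replicate 2 value of MT-RNR1 rests on about 847 reads. limma gave MT-RNR1 a log2 change of -2.77 (SE 0.48) and MT-RNR2 one of -2.97 (SE 0.76), each with an adjusted p of 0.109; both changes were 0 under quantile normalization. Among the mRNAs of the respiratory chain, MT-CYB of complex III had 178 and 192 RPKM in the EZH2 libraries against 840.1 and 1259 RPKM in the IgG libraries. MT-ND6 differed least, with 141 and 44.7 RPKM in the EZH2 libraries against 202 and 70.2 RPKM in the IgG libraries, which overlapped. Mitochondrial tRNAs were not among the 15 and went both ways. Of 10 mitochondrial rRNA and tRNA genes that passed, 2 were higher and 3 lower, with a median mean ratio of 0.10. The higher ones, the tRNAs MT-TS2 and MT-TA, were at 0 in both IgG libraries and rest on few reads in the EZH2 libraries.

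Counted as reads, mitochondrial genes took 0.504% and 0.328% of the EZH2 libraries, against 2.88% and 2.69% of the IgG libraries. The 95% Wilson intervals, which cover counting error only, ran from 0.499% to 0.509% and from 0.322% to 0.333% in the EZH2 libraries, and from 2.83% to 2.92% and from 2.58% to 2.80% in the IgG libraries. The mean share was 0.416% ± 0.125 with anti-EZH2 and 2.78% ± 0.133 with IgG (SD, n = 2 each), with an exact two-sided permutation p of 0.333, the smallest that 2 against 2 libraries can give. Because RPKM divides by length and these genes are short, they made up 5.86% and 3.14% of the summed RPKM of the EZH2 libraries, against 37.8% and 26.0% of that of the IgG libraries. RPKM is scaled to the reads of a library and not to this sum. The sum was 78736 and 111347 in the EZH2 libraries against 65260 and 98729 in the IgG libraries. By reads, mitochondrial genes took from the other genes of the IgG libraries no more than the 2.88% and 2.69% given above. The rescaling given above set the remaining genes to an equal summed RPKM. What the mitochondrial share adds to the ratios above 0 elsewhere was not tested beyond that rescaling.

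Small structured RNAs, the short noncoding RNAs of ribonucleoprotein machines, stood on the IgG side too. Of 48 listed names, 16 were in the table and 7 passed the minimum. Of the 7, 4 were lower and 1 higher, beside 3.22% and 32.7% of all 6594 genes. RMRP, the RNA of RNase MRP, had 32.8 and 72.1 RPKM in the EZH2 libraries, against 389 and 825 RPKM in the IgG libraries. RN7SK, which holds the elongation factor P-TEFb inactive, had 30.4 and 1.97 RPKM in the EZH2 libraries, against 182 and 74.2 RPKM in the IgG libraries. SCARNA2, a guide RNA of Cajal bodies, had 4.55 and 20.7 RPKM in the EZH2 libraries, against 69.9 and 205 RPKM in the IgG libraries. The groups did not overlap for any of the 3, but the reads behind them are few. By the RefSeq lengths of these genes, IgG replicate 2 held about 18 reads of RMRP, 7 of SCARNA2 and 2 of RN7SK.

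RPPH1, the RNA of RNase P, had 2.2 and 4.08 RPKM in the EZH2 libraries against 30.7 and 19.2 RPKM in the IgG libraries, the last of which is about 1 read. RNU11 and RNU12, RNAs of the minor spliceosome, were lower in replicate 1 and at 0 in IgG replicate 2: RNU12 had 14.4 and 18.8 RPKM in the EZH2 libraries against 185 and 0 RPKM in the IgG libraries. TERC, the template RNA of telomerase, was the member on the other side, with 2.83 and 9.23 RPKM in the EZH2 libraries and 0 in both IgG libraries. A single read of TERC would be worth 3.61 RPKM in IgG replicate 1 and 27.2 RPKM in IgG replicate 2, so a lower level there was not detectable at this depth.

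Long noncoding RNAs reported to bind PRC2 did not stand above IgG as a group. Of 28 names, 25 were in the table and 9 passed the minimum. Of the 9, 0 were higher and 2 lower, beside 32.7% and 3.22% of all 6594 genes. Their median mean ratio was -0.10, against 1.13 over all 6594 genes. MALAT1, an abundant RNA of nuclear speckles, had 339.5 and 172 RPKM in the EZH2 libraries, against 998.8 and 680.4 RPKM in the IgG libraries. NEAT1, the scaffold of paraspeckles, had 49.8 and 36.7 RPKM in the EZH2 libraries, against 114 and 84.7 RPKM in the IgG libraries. In both RNAs the groups did not overlap, and limma gave log2 changes of -1.77 for MALAT1 (SE 0.55, adjusted p = 0.134) and -1.19 for NEAT1 (SE 0.44, adjusted p = 0.173). With the replicate number as a block both passed. Of the 18 other settings of the fit, MALAT1 passed in 2, and NEAT1 only with the block (limma adjusted p = 0.0287). Over these 18 the log2 change ran from -2.51 to 0.26 for MALAT1 and from -1.93 to -0.97 for NEAT1. MALAT1 stood at 0.26 under quantile normalization.

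The other 7 were neither higher nor lower by both ratios. LINC-PINT, SNHG1 and PCAT1 were at 0 in IgG replicate 2, with replicate 1 ratios of 0.66 for LINC-PINT, -0.10 for SNHG1 and 0.17 for PCAT1 and replicate 2 ratios of 3.31, 5.10 and 2.46 in the same order. PVT1, with ratios of -0.43 and 1.07, differed in sign between replicates. TUG1 had 10.4 and 26.6 RPKM in the EZH2 libraries against 15.2 and 42.3 RPKM in the IgG libraries, and GAS5, which hosts several snoRNAs, had 16.4 and 34.3 RPKM against 17.2 and 38.1 RPKM. NORAD, a cytoplasmic RNA that binds Pumilio proteins, had 8.88 and 10.7 RPKM in the EZH2 libraries against 18.01 and 9.2 RPKM in the IgG libraries. The groups overlapped in all 3. Among prostate long noncoding RNAs, where 5 of 24 names passed, SCHLAP1 had 26.6 and 17.5 RPKM in the EZH2 libraries against 52.2 and 42.8 RPKM in the IgG libraries, with a replicate 1 ratio of -0.96 just short of the count. Of 19 snoRNA host genes that passed, 2 were higher and 0 lower, beside 32.7% and 3.22% of all 6594 genes. SNHG14 had 22.4 and 27.2 RPKM in the EZH2 libraries against 7.48 and 10.2 RPKM in the IgG libraries.

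**Figure D2:**
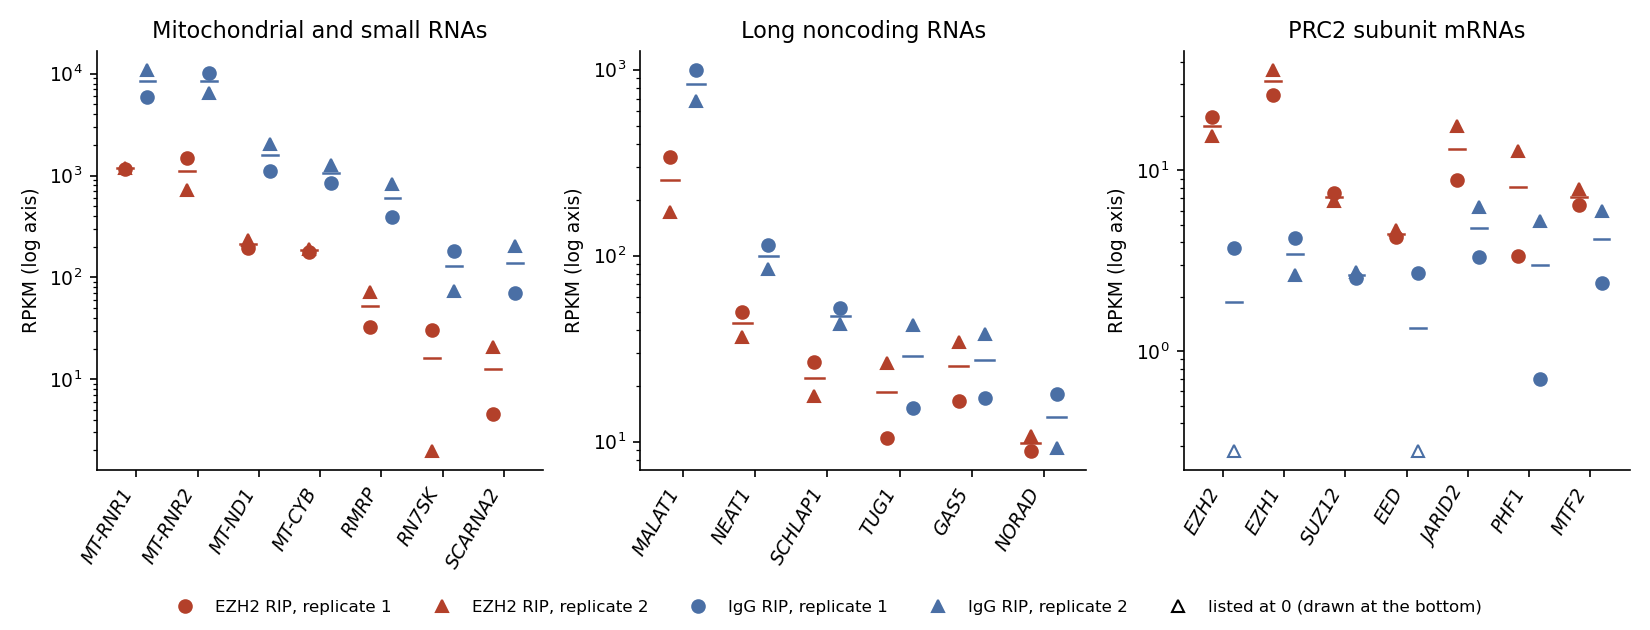
RPKM on a log axis of named mitochondrial and small RNAs, long noncoding RNAs and PRC2 subunit mRNAs in each AI RIP library, with EZH2 libraries (red) left of IgG libraries (blue), replicate 1 as circles, replicate 2 as triangles, group means as bars, and values listed at 0 as open symbols. The mitochondrial and small RNAs drawn, MALAT1, NEAT1 and SCHLAP1 lie lower in both EZH2 libraries than in either IgG library, as 5.93% of all 6594 genes do. The PRC2 subunit mRNAs drawn, except PHF1, lie higher, as 49.8% of all 6594 genes do.

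Among genes with a symbol and a value above 0 in at least 1 IgG library, the 10 with the highest ratios in both replicates comprised 9 protein-coding genes and 1 intergenic RNA. Genes at 0 in both IgG libraries, some with higher ratios, are given separately. ECT2, an activator of RhoA in cytokinesis, had 13.7 and 7.15 RPKM in the EZH2 libraries, against 0.36 and 0 RPKM in the IgG libraries. DOCK4, an activator of Rac, had 21.9 and 22.2 RPKM in the EZH2 libraries, against 1.1 and 0 RPKM in the IgG libraries. ACACB, the mitochondrial acetyl-CoA carboxylase, had 21.4 and 32.1 RPKM in the EZH2 libraries, against 1.38 and 1.3 RPKM in the IgG libraries. These genes were picked for their ratios, and ECT2, DOCK4 and ACACB passed the minimum through the EZH2 libraries alone, so their values are a description with no test.

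WDR19, a component of ciliary transport, had 31.4 and 35.4 RPKM in the EZH2 libraries against 2.35 and 2.21 RPKM in the IgG libraries and was the only one of the 10 to pass the minimum in both groups. FBF1, a protein of ciliary transition fibres, had 20.9 and 31.8 RPKM in the EZH2 libraries against 1.24 and 0 RPKM in the IgG libraries. DNAH5, an axonemal dynein heavy chain, had 16.4 and 12.6 RPKM against 1.04 and 0 RPKM, in the same order. The remaining 4 were ZW10 of the mitotic checkpoint, the mitochondrial motor MYO19, the chaperonin subunit CCT6A and the intergenic RNA LINC02718, whose replicate ratios ran from 3.40 to 6.45. LINC02718 had 42.9 and 43.2 RPKM in the EZH2 libraries against 3.51 and 0 RPKM in the IgG libraries. In GRCh38, the build of the deposited data, RefSeq places DOCK4 at chr7:111726110-112206399 and LINC02718 at chr11:22829414-23205797, spans of 480 and 376 kb.

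At the top of the EZH2 libraries by level, the mRNAs LRBA and ACACA stood among mitochondrial transcripts and MALAT1. LRBA, a vesicle trafficking protein, had 267 and 185 RPKM in the EZH2 libraries, against 70.0 and 98.8 RPKM in the IgG libraries. ACACA, the cytosolic acetyl-CoA carboxylase, had 146 and 182 RPKM in the EZH2 libraries against 43.3 and 108 RPKM in the IgG libraries. Neither overlapped between groups, though the replicate 2 ratios, 0.90 for LRBA and 0.75 for ACACA, were below those of replicate 1, 1.92 for LRBA and 1.74 for ACACA.

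Among genes listed at 0 in both IgG libraries, of which 226 passed the minimum, the highest were short or little covered. SNORD81, a snoRNA encoded within GAS5, had 24.8 and 22.6 RPKM in the EZH2 libraries, but 1 read of this 77 nt RNA is worth 21.2 RPKM in IgG replicate 1 and 160 RPKM in IgG replicate 2. ADAT1, a tRNA adenosine deaminase, had 13.7 and 24.9 RPKM in the EZH2 libraries, and GTF3C5, a subunit of transcription factor TFIIIC, 7.1 and 24.5 RPKM. The histone gene H2AC21, with 7.78 and 18.8 RPKM, belongs to a family of near-identical copies, and the pseudogene GTF2IP23 shares sequence with its parent, so the assignment of their reads is uncertain. No fold change is given against libraries at 0.

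The 10 lowest genes held RMRP, SCARNA2, RN7SK, MT-RNR2 and MT-ND4L with 5 others of low level in the EZH2 libraries. KRT13, a keratin of stratified epithelium, had 0.07 and 0.47 RPKM in the EZH2 libraries, against 5.25 and 19.8 RPKM in the IgG libraries. NDUFB3, a nuclear-encoded subunit of complex I, had 0.15 and 0.52 RPKM in the EZH2 libraries against 3.89 and 14.7 RPKM in the IgG libraries. RN7SL854P, a pseudogene of the signal recognition particle RNA, was at 0 in both EZH2 libraries and at 5.53 and 41.6 RPKM in the IgG libraries; like DDTL, a near copy of DDT, it can share reads with its relatives. The IgG values rest on an estimated 2 reads in replicate 1 and 1 read in replicate 2 for NDUFB3, and 3 reads and 1 read for DDTL. For KRT13 the number of reads was not settled. A length that gives 2 and 1 reads in the IgG libraries gives 0 reads at 0.07 RPKM in EZH2 replicate 1. KRT13, NDUFB3, RN7SL854P, DDTL and LINC02575 passed the minimum through the IgG libraries alone.

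Among mRNAs of PRC2 itself, those of EZH2 and its paralog EZH1 had ratios well above the median gene. EZH2 had 19.8 and 15.6 RPKM in the EZH2 libraries, against 3.73 and 0 RPKM in the IgG libraries. EZH1 had 26.3 and 36.0 RPKM in the EZH2 libraries, against 4.21 and 2.65 RPKM in the IgG libraries. The groups did not overlap for either gene, and limma gave log2 changes of 3.64 (SE 0.95) for EZH2 and 3.02 (SE 0.55) for EZH1, each with an adjusted p of 0.109. In IgG replicate 2, at 81400 reads, EZH2 was at 0 and the 2.65 RPKM of EZH1 rests on few reads. The replicate ratios of EZH2 were 2.26 and 5.01, and over the 18 other settings its log2 change ran from 2.10 to 5.18. Over the 18 other settings of the fit the adjusted p of EZH1 ran from 0.00547 to 0.514 and its log2 change from 2.15 to 3.31.

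Of 14 PRC2 names, 13 were in the table and 11 passed the minimum, with 5 higher and 0 lower, beside 32.7% higher and 3.22% lower over all 6594 genes. Of the 11, 6 passed through the EZH2 libraries alone, EZH2 and PHF1 among them, and could not be lower. With median ratio scaling 2 of the 11 were higher and 0 lower. SUZ12, the scaffold of the core complex, had 7.46 and 6.77 RPKM in the EZH2 libraries against 2.54 and 2.73 RPKM in the IgG libraries. In IgG replicate 2, where 1 read in a gene of 1 kb is worth 12.3 RPKM, a value of 2.73 RPKM rests on few reads. JARID2, which guides PRC2 to chromatin and binds RNA, had 8.86 and 17.6 RPKM in the EZH2 libraries against 3.32 and 6.26 RPKM in the IgG libraries. PHF1, a Polycomb-like protein, had 3.34 and 12.9 RPKM in the EZH2 libraries against 0.7 and 5.27 RPKM in the IgG libraries. Here the groups overlapped, and each IgG value rests on an estimated 1 read. The histone chaperone subunit RBBP4, with 3.02 and 2.95 RPKM against 3.05 and 1.53 RPKM, and LCOR did not differ beyond their spread. The median mean ratio of the 11 was 1.36, against 1.13 over all 6594 genes, and 0.84 with median ratio scaling, against 0.62. Of 13 PRC1 genes that passed, 6 were higher and 0 lower, beside the same 32.7% and 3.22% of all genes. Through the EZH2 libraries alone came 6 of these 13, which could not be lower. With median ratio scaling 0 of the 13 were higher and 1 lower. L3MBTL2 had 9.24 and 25.0 RPKM in the EZH2 libraries against 3.96 and 7.45 RPKM in the IgG libraries.

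mRNAs of the splicing machinery were taken in 2 lists, whose difference was not tested. Of 63 spliceosome core and accessory genes that passed, 21 were higher and 1 lower, close to the 32.7% of all genes; with median ratio scaling 7 were higher and 1 lower. DHX38, an RNA helicase of the second splicing step, had 30.8 and 25.1 RPKM in the EZH2 libraries, against 3.18 and 5.33 RPKM in the IgG libraries. AQR, the intron-binding helicase, had 21.02 and 15.79 RPKM in the EZH2 libraries, against 4.2 and 2.53 RPKM in the IgG libraries. RBM10, a splicing regulator, had 31.8 and 56.8 RPKM in the EZH2 libraries, against 9.06 and 9.75 RPKM in the IgG libraries. Of 31 SR protein and hnRNP genes none was higher or lower, and their median mean ratio was 0.38, turning to -0.12 with median ratio scaling and -0.30 with quantile normalization. SRRM2, with 129.9 and 114 RPKM in the EZH2 libraries against 104 and 142 RPKM in the IgG libraries, overlapped between the groups. SNRPG, a small core protein of snRNPs, was the spliceosome gene that was lower, at 0.75 and 0.71 RPKM against 3.19 and 8 RPKM. It passed the minimum through the IgG libraries alone and could not be higher. Its IgG values rest on an estimated 3 reads and 1 read.

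Abundant mRNAs of short genes were in part lower. Of 77 cytosolic ribosomal protein genes, 52 passed, with 0 higher and 11 lower, beside 3.22% lower over all genes, and both ratios were below 0 in 35. RPLP2, a protein of the ribosomal stalk, had 10.5 and 14.5 RPKM in the EZH2 libraries, against 35.1 and 63.0 RPKM in the IgG libraries. RPL27 had 6.62 and 13.6 RPKM in the EZH2 libraries, against 27.8 and 55.0 RPKM in the IgG libraries. The median mean ratio of the 52 was -0.87, and it stayed below 0 with each of the 3 other scalings. Ribosomal protein genes have many processed pseudogenes, so the reads of single members are uncertain. Of 28 abundant housekeeping mRNAs, 18 had both ratios below 0 and 2 were lower, FTH1 and UBB, beside 15.1% and 3.22% of all genes. FTH1, the ferritin heavy chain, had 2.84 and 4.03 RPKM in the EZH2 libraries against 15.1 and 15.2 RPKM in the IgG libraries. The IgG values of FTH1 rest on an estimated 15 and 2 reads. UBB passed the minimum through the IgG libraries alone, on an estimated 7 reads and 1 read, and could not be higher. GAPDH was listed at 0 in IgG replicate 2 at RNA levels of 775.4 and 665.8 RPKM in untreated AI cells.

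**Figure D3:**
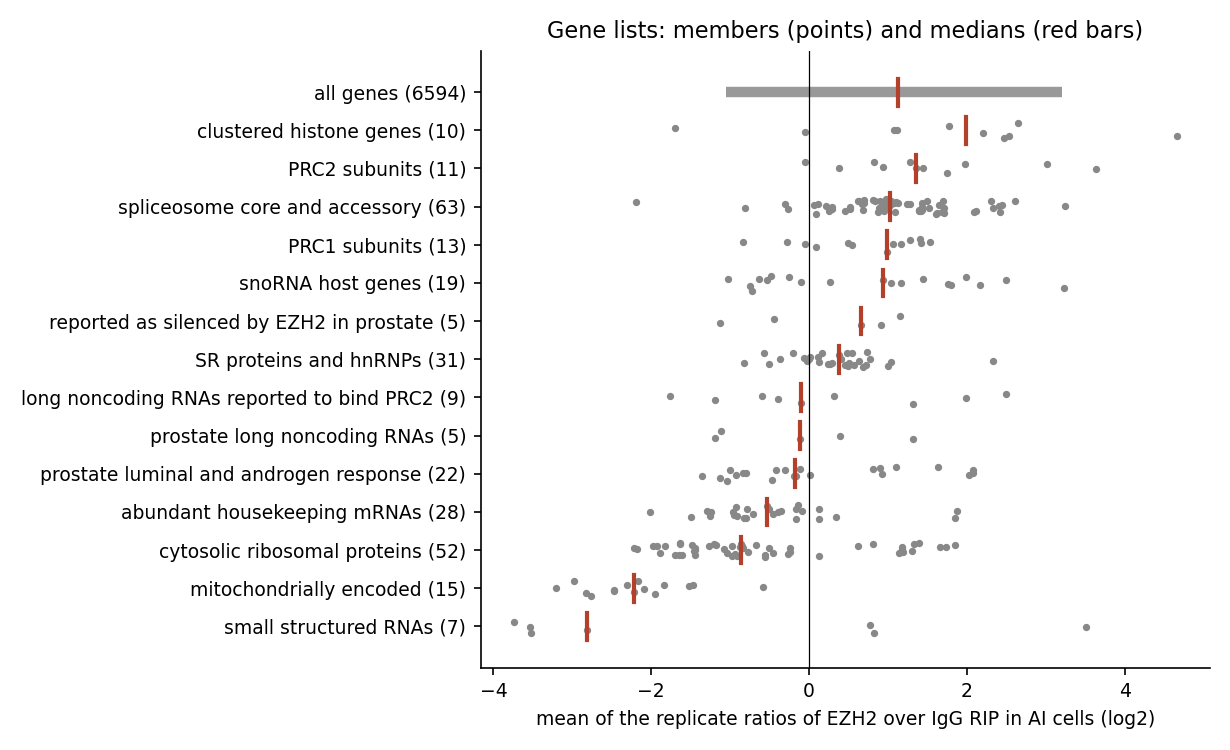
Mean of the 2 replicate ratios of EZH2 over IgG RIP in AI cells (log2) for members of each gene list with at least 5 genes that passed the minimum (points; numbers in brackets), with list medians as red bars; the grey bar spans the 5th to the 95th percentile of all 6594 genes. Small structured RNAs and the mitochondrial mRNAs and rRNAs have the lowest medians, -2.82 and -2.22. The median of the PRC2 subunits is 1.36, beside 1.13 for all genes.

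Markers of the cell line were present in all 4 libraries. All 12 luminal markers, KLK2, KLK3 and TMPRSS2 among them, were above 0 in both EZH2 libraries and in IgG replicate 1, and 9 in IgG replicate 2, with summed levels of 226 and 396.5 RPKM in the EZH2 libraries against 320.3 and 649.6 RPKM in the IgG libraries. KLK3, which encodes prostate-specific antigen, had 42.6 and 96.4 RPKM in the EZH2 libraries against 87.6 and 198 RPKM in the IgG libraries; it counted as lower within replicate numbers although the groups overlapped. In a wider list of androgen-response genes 22 passed, 2 higher and 1 lower, beside 32.7% and 3.22% of all 6594 genes. GREB1, an androgen and estrogen response gene, had 18.6 and 33.2 RPKM in the EZH2 libraries against 4.82 and 12.1 RPKM in the IgG libraries.

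Of 11 markers of blood, stromal, endothelial and basal cells, 8 were in the table and 1 passed. Their summed level was 10.3 and 22.7 RPKM in the EZH2 libraries against 1.38 and 0 RPKM in the IgG libraries. COL1A1 had 7.62 and 19.2 RPKM in the EZH2 libraries against 0.97 and 0 RPKM in the IgG libraries, and COL3A1 1.1 and 2.23 RPKM against 0 in both. The leukocyte marker PTPRC, the stromal marker DCN and the endothelial marker PECAM1 were at or near 0 in all 4 libraries. Of 41 developmental genes known as Polycomb targets, 28 were in the table and 0 reached the minimum, which 6594 of all 25035 genes reached. Of 20 genes that EZH2 is said to repress in prostate cancer cells, 5 did. Among these 5, 0 were higher and 0 lower, beside 32.7% and 3.22% of all 6594 genes.

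Whether a gene stood above IgG went with its RNA level and its span in the genome. Of 469 genes with 100 RPKM or more in untreated AI cells, 7.46% were higher and 10.9% lower, whereas of 910 genes at 1 to 3 RPKM, 48.0% were higher and 2.31% lower. By RefSeq span, 51.3% of 552 genes over 200 kb were higher and 0.181% lower, whereas of 271 genes of 1 to 5 kb, 8.86% were higher and 15.1% lower. The relation to span was in the EZH2 library more than in the IgG library and in replicate 1 more than in replicate 2. Log2 span correlated with the EZH2 level at r = 0.30 in replicate 1 and 0.06 in replicate 2, and with the IgG level at -0.04 and -0.05, across 6305 genes that share these libraries. RNA level correlated with the IgG level at r = 0.47 and 0.35, and with the EZH2 level at 0.16 and 0.32. Genes at 0 in both IgG libraries numbered 14 of the 271 genes of 1 to 5 kb and 16 of the 552 over 200 kb. All genes in the bins had passed the minimum. Those that passed through EZH2 alone could not be lower, and those through IgG alone could not be higher. The median IgG level was 2.61 RPKM in the 910 genes and 11.955 RPKM in the 469. The shares in each bin are therefore in part set by the choice of genes. The parts of depth and of this choice in the patterns were not tested.

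**Figure D4:**
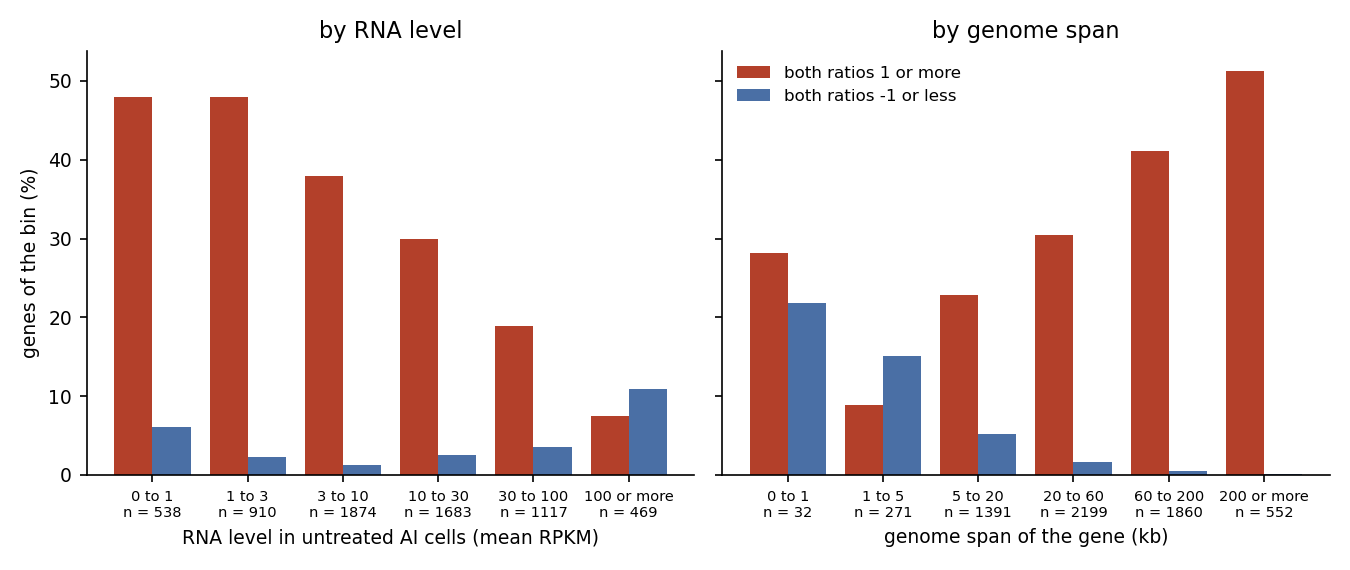
Percentage of genes with both replicate ratios of EZH2 over IgG RIP in AI cells at 1 or more (red) and at -1 or less (blue), by mean RNA level in untreated AI cells (left, RPKM) and by genome span (right, kb); n is the number of genes in each bin. The red share is 7.46% at the highest RNA level and 51.3% at the largest span.

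Promoters of genes higher in the EZH2 RIP carried H3K27me3, the mark that PRC2 writes, at about the share of all genes that passed the minimum. A promoter was the stretch from 250 bases before to 50 after a RefSeq start, in GRCh38, and counted as marked when it shared at least 1 base with a peak of the authors' list in both AI H3K27me3 samples. Of 1718 higher genes with a promoter in the table, 8 (0.466%) were marked, against 20 of 5222 (0.383%) among all genes that passed and 446 of 14489 (3.08%) in the whole table. The only AI EZH2 peak list overlapped 0 of the 1718 promoters, 2 of the 5222 and 30 of the 14489. The 8 genes were UTRN, GON4L, PDE10A, SYMPK, ANKS1B, EXOC6, LRRC7 and FAM133B, named after their values were seen.

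UTRN, the dystrophin homologue utrophin, had the highest level of the 8, with 144 and 47.0 RPKM in the EZH2 libraries against 27.02 and 18.33 RPKM in the IgG libraries, at RNA levels of 2.83 and 3.18 RPKM. GON4L, a nuclear regulator of transcription, had 37.6 and 17.5 RPKM in the EZH2 libraries against 6.33 and 0 RPKM in the IgG libraries. The peaks over the UTRN promoter were 3214 and 3142 bases long in the 2 H3K27me3 samples, and those over the GON4L promoter 5627 and 5286 bases. The 250 bases before the start are shown for both genes as the 2 of the 8 with the highest mean EZH2 level; capitals mark the dinucleotide CG. They lie at chr6:144285085-144285334 on the plus strand for UTRN and at chr1:155859432-155859681 on the minus strand for GON4L, and come from RefSeq in GRCh38.
UTRN: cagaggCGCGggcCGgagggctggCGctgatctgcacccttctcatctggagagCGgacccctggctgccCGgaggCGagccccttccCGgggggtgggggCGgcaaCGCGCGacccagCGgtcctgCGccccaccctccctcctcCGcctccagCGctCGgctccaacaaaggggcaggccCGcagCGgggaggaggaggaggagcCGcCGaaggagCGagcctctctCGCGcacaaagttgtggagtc
GON4L: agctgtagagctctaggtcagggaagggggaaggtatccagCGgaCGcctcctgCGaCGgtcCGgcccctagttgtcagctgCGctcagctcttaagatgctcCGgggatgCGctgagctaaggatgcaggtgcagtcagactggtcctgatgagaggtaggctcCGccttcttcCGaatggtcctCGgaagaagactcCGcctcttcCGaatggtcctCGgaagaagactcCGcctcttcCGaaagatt
The UTRN stretch holds 24 CG and the GON4L stretch 16, against a median of 11 in the same stretch of 27305 RefSeq promoters, 93.6% of which hold at least 1, a median of 22 in the 5222 promoters of genes that passed and a median of 9 in the 446 marked promoters. CG reads the same on both strands.

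The same contrast in AD cells, with its own EZH2 and IgG libraries, gave ratios on the same side for most of these genes. Of the 2157 genes higher in AI, 1271 (58.9%) also had both AD ratios at 1 or more, against 1780 of all 6594 genes (26.99%). Of the 212 lower in AI, 30 (14.2%) had both AD ratios at -1 or less, against 1.17% of all. The mean ratios of AI and AD correlated at r = 0.596 across the 6594 genes, a description over genes that share libraries. limma tested the difference between the AI and the AD effect for all 13667 genes and called 0 larger in AI (0.0%) and 0 smaller (0.0%) at an adjusted p of 0.05; at an unadjusted p of 0.05, 402 were larger (2.94%) and 34 smaller (0.249%).

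Mitochondrial genes took 0.377% and 0.219% of reads in the AD EZH2 libraries, against 2.28% and 0.647% in the AD IgG libraries. EZH2 had replicate ratios of 2.26 and 5.01 in AI and of 1.11 and 1.77 in AD, and EZH1 of 2.51 and 3.54 in AI and of 1.12 and 1.81 in AD. MALAT1 had ratios of -1.56 and -1.98 in AI and of -2.18 and -1.39 in AD, and RMRP of -3.55 and -3.51 in AI and of -3.61 and -2.49 in AD. TERC, with ratios of 2.74 and 4.28 in AI, had 0.0041 and -1.67 in AD. The ratios of the AI IgG replicate 2 pair rest on the shallowest library of the 8.

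**Figure D5:**
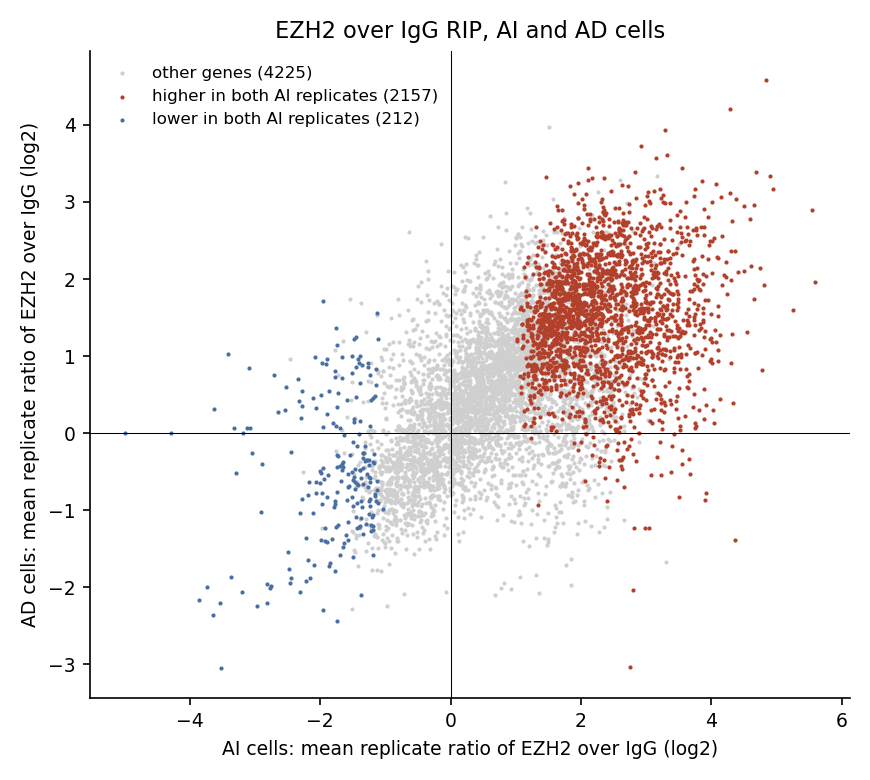
Mean replicate ratio of EZH2 over IgG RIP (log2) in AI cells (horizontal) and AD cells (vertical) for the 6594 genes, with genes higher (red, 2157) or lower (blue, 212) in both AI replicates. Most red points lie above 0 in AD as well, where 91.4% had both ratios above 0.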

How the data were processed

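RPKM values per gene were deposited by the authors for 8 RIP libraries and, separately, for RNA-seq of the same cells; per the submitters' processing notes TopHat2, edgeR, cutadapt, Bowtie2 and GRCh38 were used, and what each did, in which version, and whether counting used strand is not stated there. The deposited peak lists carry a score by the authors' peak caller, which was not tested; 3 lists of AI cells were used by position. Samples were grouped by their labels.

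Depth was estimated from the steps of mitochondrial tRNA values and RefSeq lengths. Replicate ratios used log2(RPKM + 0.5), which understates changes of low genes. limma 3.58.1 in R 4.3.3 (trend, 4 groups, Benjamini-Hochberg adjustment over all genes tested) was tested on simulated data; shares used exact permutation tests in SciPy 1.17.1. Symbols came from a gene name table for 20331 identifiers, and spans and promoters from RefSeq.

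Named genes were EZH2, the 10 with the highest and the 10 with the lowest ratios in both replicates (with a symbol and above 0 in an IgG library), the 8 highest at 0 in both IgG libraries, the 10 most abundant per group, and the extremes of each list with all PRC2, long noncoding and small structured members that passed; other members named as examples (MT-ND6, SRRM2, AQR, L3MBTL2 and the like) were chosen after their values were seen. The members and lists were chosen with earlier results of these data known. Alternatives changed the pseudocount, filter, scaling, replicate block, library weights and libraries. Some named genes are not reported here.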

Additional observations from a re-analysis of the deposited data

How the results depend on the processing

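limma's 0 calls depended on the setting. It called 494 genes higher and 12 lower with a minimum of 2 RPKM in both libraries of a group, and from 0 to 637 higher and 0 to 64 lower with 1 library left out. The fit with the replicate block called 1419 and 56, and with library weights added after the data were seen 852 and 30. The numbers are shared labels and no stated pairing: deviations of same-numbered EZH2 and IgG libraries in AI correlated at 0.32, and over the 6 pairs of groups from 0.121 to 0.847. Of the replicate ratio counts, the lower one was 93 with a pseudocount of 2, 105 at 5 RPKM, 78 with crossed numbers and 91 to 490 with 1 library left out; median ratio scaling gave 1252 higher and 519 lower. Quantile normalization gave changes of 0 for MT-RNR1 and MT-RNR2 and 0.26 for MALAT1. The causes were not tested. The fitted changes of a part of the named genes were followed under the other settings. Of these changes, 244 kept direction and stayed short of the threshold, 37 came to pass it, and 3 came to 0 or changed sign. As no gene passed in the main fit, none could cease to pass. Depth limits IgG replicate 2, at 81400 reads: a 0 there in a short gene does not show that the RNA is absent.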

Other observations

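The genes of the AI RIP table can also be grouped by annotated class. Of 6224 protein-coding genes that passed the minimum, 2066 were higher with anti-EZH2 and 156 lower, whereas of 114 long intergenic noncoding RNAs 22 were higher and 17 lower, and of 69 antisense RNAs 14 were higher and 12 lower. Of 85 pseudogenes, whose reads may belong to their parents, 28 were higher and 8 lower. Over all 6594 genes 32.7% were higher and 3.22% lower, near the 33.2% and 2.51% of the protein-coding genes. Differences between these classes were not tested.

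In 4 of the 6594 genes the replicate ratios were beyond 1 in opposite directions in AI and AD. Each of the 4 passed the minimum through 1 AI group alone, so its direction in AI was in part fixed by the choice. The pseudogene HSD17B7P2 had 1.02 and 1.73 RPKM in the AI EZH2 libraries against 5.41 and 8.16 RPKM in the AI IgG libraries, and 0.98 and 1.32 RPKM in the AD EZH2 libraries against 0 in both AD IgG libraries. limma gave the difference between AI and AD as -3.67 (SE 1.06), with an adjusted p of 0.9999. The other 3, with AI higher, carry no symbol and were at 0 in both AI IgG libraries.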
